A study of Caenorhabditis elegans with 12 samples.

Results

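The genes described here are alg-1, alg-2, ain-1 and ain-2 of Caenorhabditis elegans, which encode the core proteins of the microRNA-induced silencing complex. They were taken by name: each of the 12 count tables lists 20389 genes, and the rows that mapped to these symbols were 4. alg-1 and ain-1 lie on the X chromosome, and their paralogs alg-2 and ain-2 lie on autosomes. All 4 passed the filter on low counts in every comparison below.

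A microRNA guides an Argonaute protein to a partly complementary messenger RNA, and the complex lowers the stability or the translation of that message. ALG-1 and ALG-2 are the closely related Argonautes that bind most microRNAs of the worm, and they can stand in for each other in part. AIN-1 and AIN-2 belong to the GW182 family, which bind these Argonautes and recruit deadenylases and other repressors. As further background, many X-linked genes of the worm are kept at low levels in germ cells, whereas in somatic cells of XX animals a dosage compensation complex lowers expression from both X chromosomes.

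Polyadenylated RNA was sequenced from young adults that all carried fog-1(q253)ts and were kept at 25 °C. In this temperature-sensitive mutant the germ cells of both karyotypes make oocytes and no sperm, while XO animals have a male body and XX animals a female one. The 4 groups were XO gonads, XX gonads, XO whole worms and XX whole worms, with 3 libraries each. A gonad sample pooled at least 200 dissected gonads and a whole-worm sample at least 600 animals. Dissected gonads contain somatic gonad cells besides germ cells, and whole worms contain the gonad, so the tissues are not separate cell populations. In such bulk samples, fewer cells of a type and less RNA per cell cannot be told apart.

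The libraries held 7912618 to 16140259 gene counts. XX gonad replicate 1 stood apart from the other XX gonads: the chi-square between libraries, divided by its degrees of freedom, was 113 and 155 against them, while all other replicate pairs lay between 4.80 and 19.7. Long genes were low in that library. Its trend on exonic length gave log2 deviations of -1.55 at the length of alg-1, -1.03 at that of alg-2, -0.52 at that of ain-1 and -0.72 at that of ain-2. The genes themselves deviated from the mean of the other XX gonads by -0.01, 0.39, 0.04 and -0.01 on the log2 scale, in the same order. Germ cell markers (glh-1, glh-2, pgl-1, pgl-3, gld-1, rme-2, nos-2 and mex-5) summed to 6876 to 7425 CPM (read counts scaled to library size) in XO gonads, against 7487 to 8810 CPM in XX gonads. In whole worms they summed to 3743 to 4122 CPM in XO and 4557 to 4594 CPM in XX.

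In the WBcel235 annotation, alg-1 (F48F7.1, WBGene00000105) spans X:13949110-13956261 on the plus strand, with 6696 exonic bases, 3069 of them coding, in 4 transcripts. Its span holds the small nucleolar RNA K02B9.10 on the same strand. alg-2 (T07D3.7, WBGene00000106) spans II:873212-879885 on the plus strand, with 4142 exonic and 2730 coding bases in 2 transcripts, and short non-coding RNAs overlap it on both strands. ain-1 (C06G1.4, WBGene00015547) spans X:16613451-16616871 on the plus strand, with 2592 exonic and 1923 coding bases in 1 transcript, and an antisense non-coding RNA, C06G1.12, overlaps it. ain-2 (B0041.2, WBGene00015007) spans I:4653467-4660153 on the plus strand, with 3149 exonic and 2244 coding bases in 8 transcripts, and no other gene overlaps it. The build behind the counts and the use of strand in counting are not given in the sources used here. Reads of the overlapping RNAs therefore could not be told apart from those of alg-1, alg-2 and ain-1.

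Both X-linked genes were almost 10-fold lower in XO than in XX gonads, while no change of their autosomal paralogs passed the test. The Argonaute gene alg-1 had 66, 110 and 104 reads in the XO gonad libraries, against 810, 1069 and 681 in the XX gonad libraries. In CPM, that was 5.02, 6.75 and 6.89 in XO gonads, against 62.2, 67.5 and 58.0 in XX gonads. The groups lay far apart, with no value between 6.89 and 58.0 CPM. The log2 fold change of XO over XX gonads was -3.30 (SE 0.17, adjusted p = 4.62e-05), a 9.86-fold lower level, by the quasi-likelihood test of edgeR, adjusted by Benjamini-Hochberg over all genes tested.

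The GW182-family gene ain-1 was just as far apart. It averaged 146 reads in XO gonad libraries and 1315 in XX gonad libraries, with 9.06, 10.6 and 9.74 CPM in XO gonads, against 98.7, 102 and 89.7 CPM in XX gonads. Its log2 fold change was -3.28 (SE 0.12, adjusted p = 2.94e-05, edgeR), a 9.70-fold lower level in XO gonads. All 3 XO gonads were below all 3 XX gonads for both X-linked genes.

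The autosomal Argonaute gene alg-2 stood at 113, 114 and 107 CPM in XO gonads, against 160, 132 and 112 CPM in XX gonads, and these ranges overlapped. The wide spread of the XX gonads came with the high value in replicate 1. The log2 fold change was -0.26 (SE 0.15, adjusted p = 0.256, edgeR), and -0.10 without XX gonad replicate 1. ain-2 stood at 261, 245 and 249 CPM in XO gonads, against 259, 270 and 248 CPM in XX gonads. Its log2 fold change was -0.02 (SE 0.09, adjusted p = 0.879, edgeR). Leaving out XX gonad replicate 1 gave -3.29 for alg-1, -3.25 for ain-1 and -0.01 for ain-2. Offsets that follow each library's length trend gave -4.16 for alg-1, -0.91 for alg-2, -3.54 for ain-1 and -0.40 for ain-2, of which those of alg-1 and ain-1 passed.

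**Figure D1:**
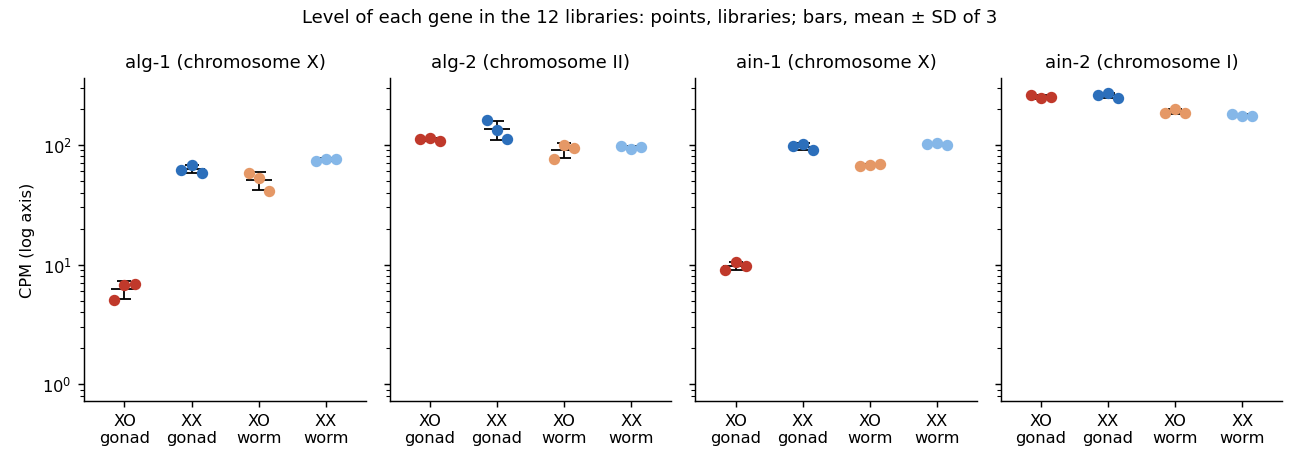
Level of each gene in the 12 libraries, in CPM on a log axis, with points for libraries and bars for the mean ± SD of 3. The XO gonad libraries sit at 5.02 to 6.89 CPM for alg-1 and 9.06 to 10.6 CPM for ain-1, below every other library, whereas for alg-2 and ain-2 the XO gonads overlap the XX gonads.

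The count of 2 genes that fell out of 4 has to be read against the chromosome they lie on. Over all genes tested in gonads, 19.7% fell and 8.07% rose in XO. Among X-linked genes 81.4% (777 of 954) fell, and among autosomal genes 11.9% fell. The median log2 fold change was -2.90 for X-linked and 0.08 for autosomal genes. alg-1 and ain-1 lay inside the X-linked distribution: 361 of the 954 X-linked genes tested (37.8%) had a lower log2 fold change than alg-1, and 366 (38.4%) a lower one than ain-1. alg-2 and ain-2 lay inside the autosomal distribution, where 1713 of 7479 genes (22.9%) were lower than alg-2 and 3119 (41.7%) lower than ain-2.

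Markers of other cell types moved with karyotype in the gonad libraries. Of 5 gonadal sheath markers (lim-7, inx-8, inx-9, ceh-18 and tbh-1, 2 of them X-linked), 4 fell in XO gonads. The 5 summed to 21.01 to 30.7 CPM in XO gonads, against 287 to 303 CPM in XX gonads. The marker that did not pass, inx-9, held most of the XO sum, with means of 22.7 CPM in XO gonads and 18.9 CPM in XX gonads. Of 8 muscle markers, 3 of them X-linked, 7 fell, and their sum was 138 to 209 CPM in XO gonads, against 452 to 575 CPM in XX gonads. Intestine markers summed to 112 to 156 CPM in XO gonads, against 26.6 to 57.4 CPM in XX gonads, and 2 of the 4 tested rose. Cuticle markers summed to 127 to 138 CPM and 41.5 to 90.1 CPM, in that order of groups, with rol-6 and bli-1 at 0 in both. Of 3 spermatheca markers, fln-1 held nearly all of the sum, at 1029 CPM in XO gonads and 448 CPM in XX gonads (adjusted p = 0.213, edgeR), and it rose without XX gonad replicate 1 (adjusted p = 0.00503). fkh-6 averaged 0.109 CPM in XO gonads and 1.04 CPM in XX gonads, and sth-1 was at 0 in XO gonads and 0.211 CPM in XX gonads. None of 8 germ cell markers passed the test in gonads. The part of these cell types in the levels of alg-1 and ain-1 was not tested.

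In whole worms the same pair of X-linked genes was lower in XO, by much less. alg-1 had 57.8, 52.4 and 41.2 CPM in XO worms, against 72.8, 75.5 and 76.8 CPM in XX worms. Its log2 fold change was -0.67 (SE 0.11, adjusted p = 0.000314, edgeR), a 1.59-fold lower level. ain-1 had 66.8, 68.4 and 68.9 CPM in XO worms, against 102, 104 and 98.8 CPM in XX worms. Its log2 fold change was -0.66 (SE 0.06, adjusted p = 6.21e-07, edgeR), a 1.58-fold lower level. For both genes every XO worm library was below every XX worm library, and the XO worms spread more for alg-1 than for ain-1.

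The autosomal paralogs did not pass the test in whole worms. alg-2 stood at 76.8, 100 and 94.95 CPM in XO worms and 97.5, 91.9 and 96.4 CPM in XX worms, with a log2 fold change of -0.16 (SE 0.08, adjusted p = 0.128, edgeR). One XO worm library was low and the other two lay within or above the XX range. ain-2 stood at 186, 200.0 and 185 CPM in XO worms and 181, 174 and 174 CPM in XX worms. Its ranges did not overlap, but its log2 fold change was 0.02 (SE 0.06, adjusted p = 0.769, edgeR) in the fit of the 6 whole-worm libraries, whose scaling differs from the 12-library scaling behind the CPM. Without XO worm replicate 2, the fall of alg-2 passed the threshold (log2 fold change -0.24, adjusted p = 0.0497, edgeR). With length-trend offsets, both autosomal genes fell in XO worms, alg-2 by 0.34 and ain-2 by 0.17 on the log2 scale (adjusted p = 0.00456 and 0.0157, edgeR). Those offsets also moved the median of all genes by -0.25.

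In whole worms 24.2% of all genes tested fell and 29.2% rose. The X-linked genes tested fell in 42.2% of cases and rose in 29.9%, and their median was -0.16 on the log2 scale, against 0.03 for autosomal genes. alg-1 had 610 of 1715 X-linked genes (35.6%) below it and ain-1 had 615 (35.9%). Gonadal sheath markers summed to 51.9 to 55.9 CPM in XO worms and 242 to 277 CPM in XX worms, and 3 of 5 fell and 1 rose. The 1 that rose was inx-9, with means of 33.5 CPM in XO worms and 17.0 CPM in XX worms. Of 8 muscle markers 5 rose and 1 fell. Muscle markers summed to 14389 to 15528 CPM in XO worms and 6671 to 8595 CPM in XX worms, and 7 of 8 neuron markers rose. These marker levels moved with karyotype too, and the part of whole-body makeup in the levels of the 4 genes was not tested.

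**Figure D2:**
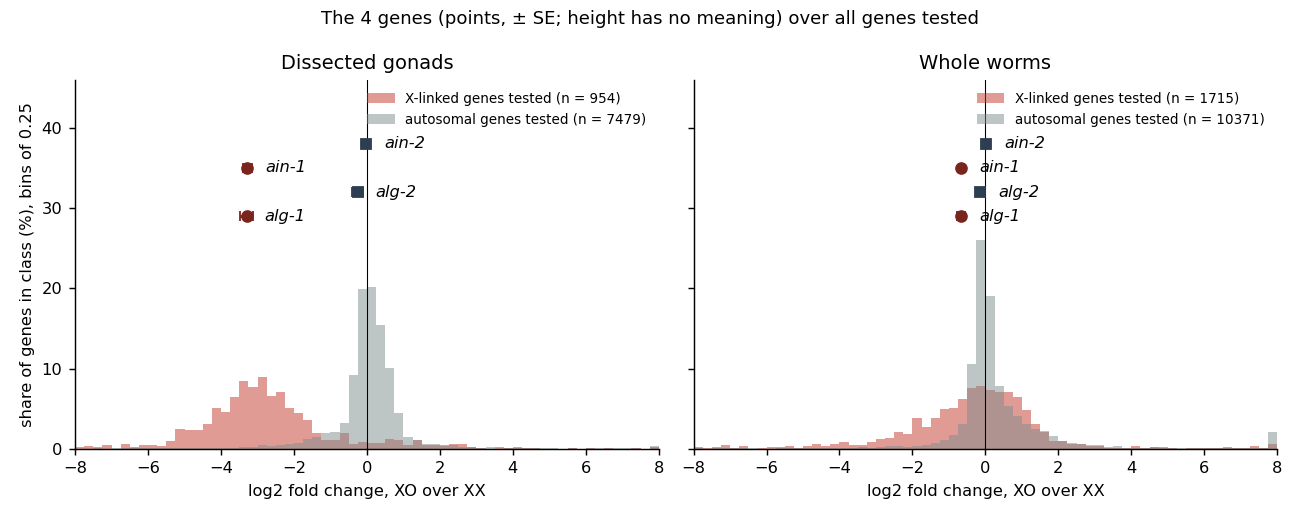
Log2 fold change of XO over XX in dissected gonads and in whole worms, as histograms of X-linked and autosomal genes tested (percent of genes in the class; values beyond the axis stand in the end bins), with the 4 genes as points ± SE whose height has no meaning. In gonads alg-1 (-3.30) and ain-1 (-3.28) lie within the X-linked distribution around its median of -2.90, and alg-2 (-0.26) and ain-2 (-0.02) lie within the autosomal one.

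The difference between tissues was itself tested. The log2 fold change of XO over XX in gonads minus that in whole worms was -2.75 for alg-1 (SE 0.20, adjusted p = 1.27e-06) and -2.73 for ain-1 (SE 0.12, adjusted p = 4.59e-08) in edgeR's fit of all 12 libraries. It was -0.21 for alg-2 (SE 0.18, adjusted p = 0.524) and -0.15 for ain-2 (SE 0.10, adjusted p = 0.381). Over all genes tested 14.1% had a lower interaction term that passed, and among X-linked genes 40.8% did, with a median of -1.55. The drop of the X-linked pair in XO was thus larger in gonads than in whole worms.

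Compared with whole worms of the same karyotype, XO gonads were poor in both X-linked genes. The log2 fold change of gonad over whole worm in XO was -3.01 for alg-1 (SE 0.15, adjusted p = 2.94e-09, edgeR) and -2.80 for ain-1 (SE 0.09, adjusted p = 8.88e-11, edgeR). Of the X-linked genes tested, 88.0% were lower in XO gonads than in XO worms, with a median of -4.43. alg-1 and ain-1 therefore lay above the X-linked median there. ain-2 was higher in XO gonads than in XO worms (0.40, SE 0.07, adjusted p = 0.00019, edgeR), and alg-2 had 0.29 (SE 0.13, adjusted p = 0.0551). Of all autosomal genes tested, 34.3% were higher in XO gonads. The rise of ain-2 did not pass with scaling on autosomal genes alone (0.28, adjusted p = 0.0936). That of alg-2 passed without XO worm replicate 2 (0.37, adjusted p = 0.0361, edgeR). Length-trend offsets gave -1.75 for alg-1, -1.90 for ain-1, 1.18 for alg-2 and 1.26 for ain-2, and all 4 passed.

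In XX animals the difference between gonad and whole worm did not pass the test for either X-linked gene. alg-1 averaged 62.6 ± 4.79 CPM in XX gonads and 75.03 ± 2.0 CPM in XX worms (SD, n = 3 each), with a log2 fold change of -0.26 (SE 0.14, adjusted p = 0.107, edgeR) that was 1.45 and passed as higher in XX gonads with length-trend offsets (adjusted p = 0.00928, edgeR). It passed as lower without XX gonad replicate 2 (-0.44, adjusted p = 0.0345, edgeR) and with DESeq2 or RLE size factors (-0.39). ain-1 averaged 96.6 ± 6.16 CPM in XX gonads and 101 ± 2.46 CPM in XX worms, with a log2 fold change of -0.07 (SE 0.08, adjusted p = 0.484, edgeR) that was 0.01 without the filter on low counts and 0.80, passing as higher in XX gonads, with length-trend offsets (adjusted p = 0.000199, edgeR). Among X-linked genes tested, 67.4% were lower in XX gonads than in XX worms, and the median was -2.04. Both autosomal genes were higher in XX gonads, alg-2 by 0.50 (SE 0.13, adjusted p = 0.0040, edgeR) and ain-2 by 0.55 (SE 0.07, adjusted p = 1.90e-05, edgeR), as were 32.1% of autosomal genes. That of alg-2 did not pass with DESeq2 (0.39), with RLE size factors (0.39) or with scaling on autosomal genes (0.45). With length-trend offsets these rises were 1.71 for alg-2 and 1.49 for ain-2, and both passed.

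By mean CPM, the order of the groups was the same for both X-linked genes and differed for each autosomal gene. alg-1 was highest in XX worms, then XX gonads, XO worms and XO gonads, and no neighbours in this order overlapped, though the lowest XX gonad (58.0 CPM) and the highest XO worm (57.8 CPM) almost met. ain-1 followed the same order, with XX worms (98.8 to 104 CPM) and XX gonads (89.7 to 102 CPM) overlapping. alg-2 ran from XX gonads through XO gonads and XX worms to XO worms, and only XO gonads and XX worms did not overlap. ain-2 ran from XX gonads through XO gonads and XO worms to XX worms, and only the gonads overlapped each other. In the main fits, no XO against XX difference of alg-2 or ain-2 passed the test. Nor did that between XX gonads and XX worms for alg-1 or ain-1. With length-trend offsets both X-linked genes were higher in XX gonads than in XX worms, by 1.45 and 0.80 on the log2 scale.

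Levels of different genes were compared per kilobase of exon. In XO gonads the mean levels were 0.929 CPM per exonic kilobase for alg-1, 26.8 for alg-2, 3.78 for ain-1 and 79.9 for ain-2. In XX gonads they were 9.34 for alg-1, 32.6 for alg-2, 37.3 for ain-1 and 82.3 for ain-2. In XO worms they were 7.53, 21.9, 26.3 and 60.5 CPM per exonic kilobase, and in XX worms 11.2, 23.0, 39.1 and 56.1, in that order of genes. The autosomal member of each pair was the more abundant one in all 12 libraries. All 4 genes stood above most annotated genes of their chromosome class, a set that includes genes too low to test. Of the X-linked genes, 954 were tested in gonads. By this measure alg-1 exceeded 79.1% to 86.5% and ain-1 91.8% to 96.7% of 2716 X-linked genes in the 4 groups. alg-2 exceeded 71.7% to 79.1% and ain-2 88.6% to 90.9% of 17168 autosomal genes.

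The ratio of an X-linked gene to its autosomal paralog, taken within a library, does not depend on how libraries are scaled. The log2 ratio of alg-1 over alg-2, per exonic kilobase, was -5.17, -4.76 and -4.64 in XO gonads, against -2.06, -1.66 and -1.64 in XX gonads. The XO gonads were lower by 3.07 on average (SE 0.21), an 8.39-fold lower ratio, and the groups did not overlap. The log2 ratio of ain-1 over ain-2 was -4.56, -4.25 and -4.39 in XO gonads, against -1.11, -1.13 and -1.19 in XX gonads. There the difference of XO minus XX was -3.26 (SE 0.09), a 9.57-fold lower ratio.

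In whole worms the ain pair differed and the alg pair overlapped. The log2 ratio of ain-1 over ain-2 was -1.20, -1.27 and -1.14 in XO worms and -0.55, -0.47 and -0.53 in XX worms, a difference of -0.68 (SE 0.04) or a 1.61-fold lower ratio. That of alg-1 over alg-2 was -1.10, -1.63 and -1.90 in XO worms and -1.11, -0.98 and -1.02 in XX worms, a difference of -0.50 (SE 0.24). The XO worm with the highest alg ratio fell among the XX worms. A 2-sided permutation test of 3 against 3 libraries cannot give a p below 0.1. The exact permutation test gave p = 0.1 for both pairs in gonads and for the ain pair in whole worms (adjusted over the 4 tests, 0.133), and p = 0.2 for the alg pair in whole worms (adjusted, 0.2).

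**Figure D3:**
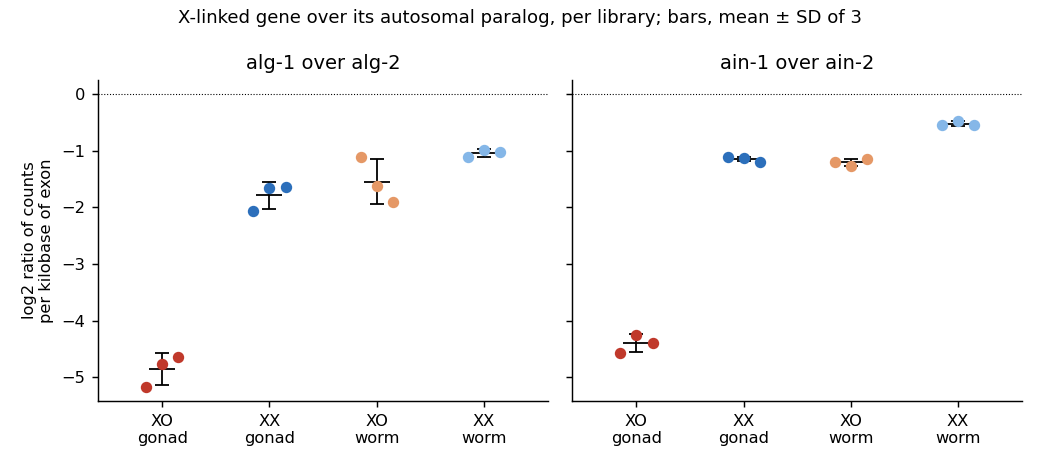
Log2 ratio of the X-linked gene to its autosomal paralog in each library, per kilobase of exon, with bars for the mean ± SD of 3 libraries. The XO gonads lie between -5.17 and -4.25 for the 2 pairs, and all other libraries lie at or above -2.06.

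The X-linked gene supplied a small part of each pair in XO gonads. alg-1 made up 3.37% ± 0.599 of the summed level of alg-1 and alg-2 per exonic kilobase in XO gonads, against 22.5% ± 2.77 in XX gonads (SD, n = 3 each). In whole worms its share was 25.8% ± 5.42 in XO and 32.8% ± 1.07 in XX. ain-1 made up 4.53% ± 0.467 of its pair in XO gonads, against 31.2% ± 0.600 in XX gonads. In whole worms its share was 30.3% ± 0.900 in XO and 41.1% ± 0.690 in XX. With coding length in place of exonic length, an alternative chosen after the data were seen, the share of alg-1 was 4.78% in XO gonads, against 29.5% in XX gonads. The share of ain-1 was then 4.36% in XO gonads, against 30.3% in XX gonads.

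The summed level of each pair differed less between karyotypes than its X-linked member did. alg-1 plus alg-2 summed to 27.9, 28.4 and 26.8 CPM per exonic kilobase in XO gonads, against 48.0, 42.1 and 35.6 in XX gonads, so that the XO mean was 66.2% of the XX mean. In whole worms the sums were 27.2, 31.97 and 29.1 in XO and 34.4, 33.5 and 34.7 in XX, or 86.0% of the XX mean. ain-1 plus ain-2 summed to 86.5, 81.9 and 82.8 in XO gonads, against 120, 125 and 113 in XX gonads, or 70.0%. In whole worms these sums were 84.9, 89.9 and 85.3 in XO and 97.0, 95.4 and 93.3 in XX, or 91.1%. All XO sums were below all XX sums of the same tissue. The autosomal member was part of the lower alg sum in gonads: alg-1 averaged 0.929 in XO gonads, against 9.34 in XX gonads, and alg-2 averaged 26.8, against 32.6, with 38.7 in XX gonad replicate 1.

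**Figure D4:**
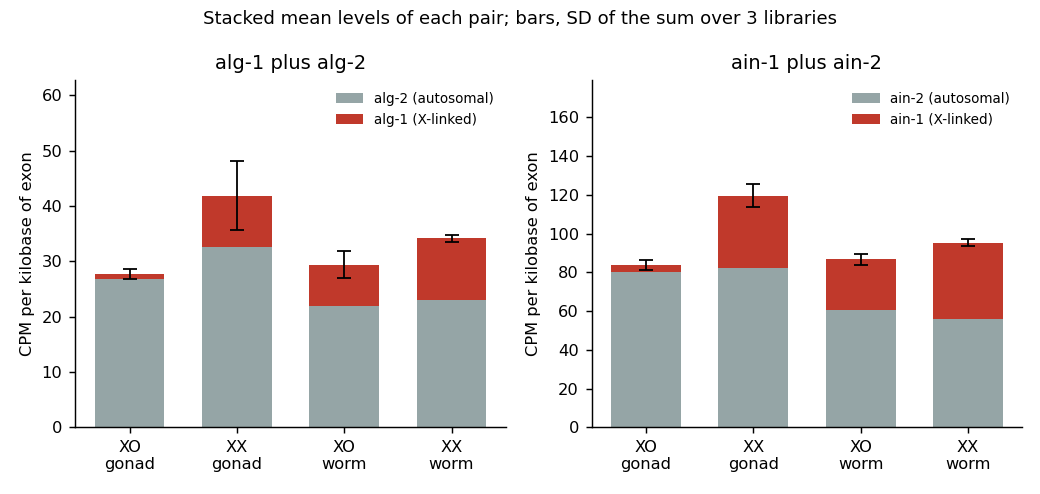
Mean level of each pair in CPM per kilobase of exon, stacked from the autosomal gene (grey) and the X-linked gene (red), with bars for the SD of the sum over 3 libraries. The X-linked part is thin in XO gonads (0.929 for alg-1 and 3.78 for ain-1). The autosomal part in XO and XX gonads is 26.8 and 32.6 for alg-2, and 79.9 and 82.3 for ain-2. In XO and XX worms it is 21.9 and 23.0 for alg-2, and 60.5 and 56.1 for ain-2.

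Within a chromosome class, the Argonaute and the GW182-family gene kept a near constant ratio. The log2 ratio of alg-1 over ain-1 per exonic kilobase averaged -2.03 ± 0.17 in XO gonads, against -2.0 ± 0.04 in XX gonads, and -1.81 ± 0.27 in XO worms and -1.80 ± 0.06 in XX worms (SD, n = 3 each). The log2 ratio of alg-2 over ain-2 averaged -1.58 ± 0.06 in XO gonads, against -1.35 ± 0.24 in XX gonads, and -1.47 ± 0.17 in XO worms and -1.29 ± 0.04 in XX worms. Karyotype moved neither ratio by more than 0.3 on average, while it moved the ratios of X-linked gene to autosomal paralog by more than 3 in gonads.

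Across the 12 libraries, the profile of each gene was compared with those of 7919 genes averaging at least 5 CPM, by Pearson's r of log2(CPM + 1). These libraries fall into 4 groups, so r mainly describes likeness of the group levels, and no test is given. The profiles closest to alg-1 were those of pho-14 (r = 0.996, chromosome II) and of the X-linked genes ile-2, hyl-2, C15H9.9 and dhhc-14 (each 0.995). ain-1 came at rank 7 for alg-1, with r = 0.994. The profiles closest to ain-1 were those of C15H9.9 and F47B7.2 (both X-linked, 0.998), ctsa-1.1 (chromosome II, 0.997), gln-1 and kin-20 (both X-linked, 0.997). For either X-linked gene, 86 of the 100 closest genes were X-linked, against 11% of the genes compared.

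The autosomal genes kept other company. The closest profiles to alg-2 were those of lmtr-2 (r = 0.972), T27F6.6 (0.965), hal-2 (0.960), gmpr-1 (0.956) and gut-2 (0.952). Those closest to ain-2 were D1069.3 (0.992), pigu-1 (0.989), C18F10.7 (0.988), mei-1 (0.988) and dhhc-6 (0.987). None of the 100 closest genes was X-linked for alg-2 or for ain-2. Between paralogs, r was -0.13 for alg-1 with alg-2 and -0.47 for ain-1 with ain-2, whereas alg-2 with ain-2 gave 0.78. Many genes were closer than that: of 7919 compared, ain-2 came at rank 1434 for alg-2, and alg-2 at rank 2604 for ain-2.

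Genes near the 4 loci were read for the same contrast. Within 50 kb of alg-1, all 10 genes tested in gonads fell in XO, with log2 fold changes of -4.94 to -2.72 and a median of -2.89, close to the X-linked median of -2.90. Within 50 kb of ain-1 all 4 genes tested fell, with a median of -1.89. Over the whole chromosome 81.4% of X-linked genes fell. Around alg-2, 3 of 7 fell and none rose, and around ain-2, 1 fell and 1 rose of 17, where 11.9% of autosomal genes fell. In whole worms, 9 of 15 neighbours of alg-1 fell and 3 rose, and 3 of 5 neighbours of ain-1 fell. Among X-linked genes 42.2% fell and 29.9% rose there. Around alg-2, 5 of 8 fell and 2 rose in worms, and around ain-2, 9 of 18 fell and 2 rose. Over all genes tested in worms, 24.2% fell and 29.2% rose.

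The other genes of the pathway were read from 7 lists of 64 matched genes, 5 of them X-linked, with lin-28 in 2 of the lists. In gonads, 59 were tested, of which 2 rose, 3 fell and 54 did not pass, where 8.07% of all genes tested rose and 19.7% fell. The listed genes had a log2 fold change of 0.08 at the median, against 0.02 over all genes. In whole worms, 62 were tested, of which 5 rose, 19 fell and 38 did not pass, where 29.2% of all genes rose and 24.2% fell. The median was -0.08, against 0.02 over all genes. Without XX gonad replicate 1, a setting chosen after the data were seen, 13 of 60 rose and 5 fell in gonads. In that setting 18.8% of all genes tested rose and 23.8% fell.

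Genes that make microRNAs did not pass the test in either tissue. drsh-1, which encodes the nuclear Drosha enzyme, stood at 137, 80.8 and 90.9 CPM in XO gonads, against 3.07, 50.3 and 116 CPM in XX gonads. dcr-1, the Dicer gene, stood at 267, 130 and 141 CPM in XO gonads, against 7.75, 103 and 222 CPM in XX gonads. Both were far lower in XX gonad replicate 1 than in any other library. Their log2 fold changes in gonads were 0.90 (adjusted p = 0.551) for drsh-1, 0.47 (adjusted p = 0.408) for its partner pash-1 and 0.72 (adjusted p = 0.618) for dcr-1. pash-1 was lowest in XX gonad replicate 1 too, at 39.5 CPM. Without that library the values were 0.35 for drsh-1, 0.14 for pash-1 and 0.17 for dcr-1, and none passed. In whole worms the values were 0.16, -0.11 and 0.08.

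Of the 8 genes for microRNA stability and Argonaute loading, none passed in gonads and 2 fell in whole worms, where 24.2% of all genes fell. ebax-1, which encodes a ubiquitin ligase subunit whose mammalian relative acts in Argonaute turnover, had a log2 fold change of -0.67 in worms (adjusted p = 1.61e-05, edgeR). It averaged 41.9 ± 3.17 CPM in XO worms and 62.8 ± 4.89 CPM in XX worms (SD, n = 3 each). Without XX gonad replicate 1 ebax-1 also fell in gonads, by 1.31 on the log2 scale (adjusted p = 0.000262, edgeR). The chaperone gene hsp-90 had -0.29 in worms (adjusted p = 0.0100). pup-2, for a poly(U) polymerase, and lin-28, for an RNA-binding protein that holds back let-7 maturation, did not pass in either tissue.

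Of 8 cofactors of the silencing complex, 6 fell in whole worms, where 24.2% of all genes fell, and none passed in gonads. tsn-1, for a Tudor-domain nuclease of the complex, had -0.45 in worms (adjusted p = 6.23e-05, edgeR), at 573 ± 26.5 CPM in XO and 738 ± 23.3 CPM in XX. The RNA-binding protein genes pqn-59 (-0.33, adjusted p = 0.00188), gtbp-1 (-0.29, adjusted p = 0.00121) and hrpk-1 (-0.24, adjusted p = 0.0026) fell by less. Germ cell markers were lower in XO worms as well, 7 of 8 falling, with a median log2 fold change of -0.25, and the part of germ cell content in these falls was not tested.

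Among the 12 deadenylation genes, 1 fell in gonads (19.7% of all genes fell) and 3 fell in whole worms (24.2% of all genes fell). The gene that fell in gonads was pab-2, an X-linked gene for a poly(A)-binding protein, at 11.8 ± 1.56 CPM in XO gonads, against 34.8 ± 6.54 CPM in XX gonads (log2 fold change -1.54, adjusted p = 0.00155, edgeR). In whole worms it was at 85.7 ± 2.63 CPM in XO and 73.3 ± 2.07 CPM in XX (0.14, adjusted p = 0.0799). Its autosomal relative pab-1 averaged 3435 CPM in XO gonads, against 3020 CPM in XX gonads (0.21, adjusted p = 0.238), and it rose without XX gonad replicate 1 (0.31, adjusted p = 0.0219, edgeR). In whole worms pab-1 had -0.25 (adjusted p = 0.0196), let-711, the scaffold gene of the CCR4-NOT deadenylase, -0.26 (adjusted p = 0.00384) and panl-3 of the PAN deadenylase -0.28 (adjusted p = 0.00188).

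Of 9 genes for decapping and P bodies, none passed in gonads and 4 fell in worms, against 24.2% of all genes. These were lsm-1 (-0.44, adjusted p = 0.000762), car-1 (-0.26, adjusted p = 0.00815), ifet-1 (-0.21, adjusted p = 0.0151) and patr-1 (-0.16, adjusted p = 0.0266), whose products act in decay or storage of messages. Without XX gonad replicate 1, lsm-1 fell in gonads (-0.25, adjusted p = 0.041, edgeR), and dcap-2 (0.23, adjusted p = 0.0403) and edc-4 (0.19, adjusted p = 0.0358), for decapping factors, rose.

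Most of the other Argonautes bind small RNAs other than microRNAs. Of the 15 other Argonautes tested in gonads, 2 rose and 1 fell, where 8.07% of all genes rose and 19.7% fell. Of the 16 tested in worms, 4 rose and 1 fell, where 29.2% of all genes rose and 24.2% fell. Without XX gonad replicate 1, 8 of 15 rose in gonads, where 18.8% of all genes rose. The X-linked member nrde-3, for a nuclear Argonaute of the soma, fell in both tissues. It had 4.87, 5.34 and 5.83 CPM in XO gonads, against 41.1, 69.0 and 70.1 CPM in XX gonads (log2 fold change -3.46, adjusted p = 0.000154, edgeR). It averaged 13.2 ± 1.32 CPM in XO worms and 61.0 ± 0.672 CPM in XX worms (-2.29, adjusted p = 8.96e-11, edgeR). Its fold change in gonads was thus near those of alg-1 and ain-1, and the one in whole worms was further from 0 than theirs.

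The autosomal Argonaute gene sago-1 rose in gonads, at 30.9 ± 1.83 CPM in XO and 11.2 ± 1.93 CPM in XX (log2 fold change 1.48, adjusted p = 0.000864, edgeR), and in worms by 0.50 (adjusted p = 3.13e-05). ppw-2 rose in gonads by 0.52 (adjusted p = 0.00905), with 0.02 in worms. alg-5, for a germline Argonaute that also binds microRNAs, averaged 255 ± 20.6 CPM in XO gonads, against 179 ± 61.5 CPM in XX gonads (0.54, adjusted p = 0.203). Its XX gonad replicate 1 held 108 CPM, and without that library the log2 fold change was 0.29 (adjusted p = 0.012, edgeR). In whole worms alg-5 rose by 0.19 (adjusted p = 0.012).

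Of the known targets of the lin-4 and let-7 microRNAs, 1 of 5 tested fell in gonads, where 19.7% of all genes fell. In whole worms 1 rose and 3 fell of the 7 targets, where 29.2% of all genes rose and 24.2% fell. lin-42, which encodes a period-like protein, fell in gonads (-0.60, adjusted p = 0.0304) and in worms (-0.42, adjusted p = 0.0387). lin-41, for a TRIM-NHL RNA-binding protein of oocytes, averaged 635 ± 58.7 CPM in XO gonads, against 635 ± 57.0 CPM in XX gonads, and fell in worms by 0.20 (adjusted p = 0.0116). hbl-1 and lin-14 are X-linked, and in worms they had log2 fold changes of -1.55 (adjusted p = 0.0366) and 0.39 (adjusted p = 0.041). hbl-1 was uneven among XO worms, with 4.41, 1.53 and 0.773 CPM, against 6.55, 4.97 and 5.33 CPM in XX worms.

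**Figure D5:**
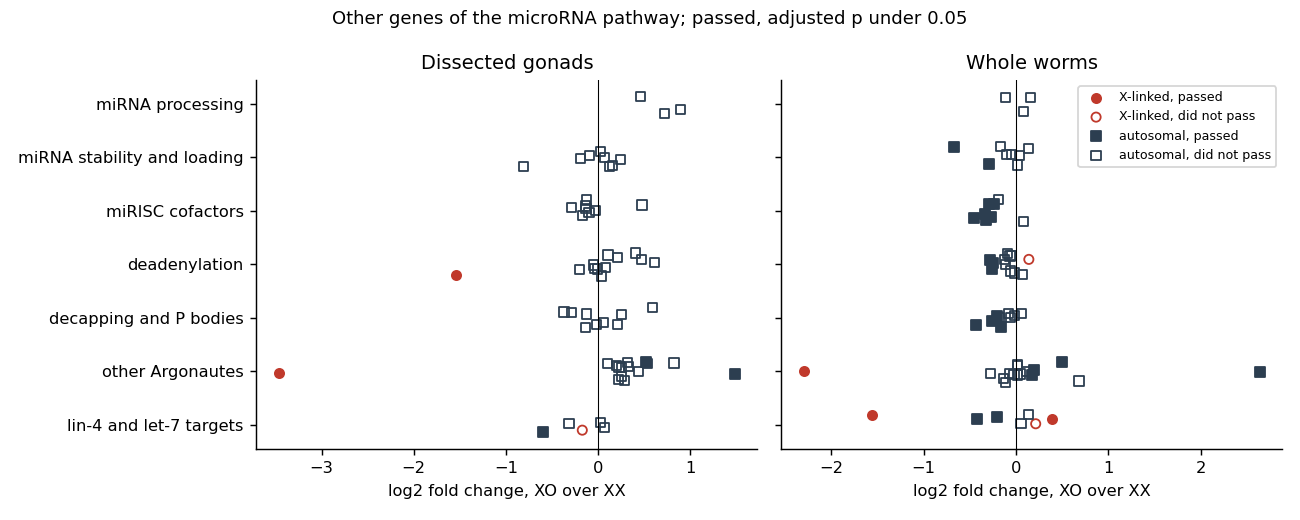
Log2 fold change of XO over XX for the other genes of the pathway by list, in dissected gonads and in whole worms, with filled symbols for genes that passed an adjusted p of 0.05 and circles for X-linked genes. The X-linked genes nrde-3 (-3.46) and pab-2 (-1.54) stand furthest left in gonads. The autosomal genes tested in gonads run from -0.81 (ebax-1) to 1.48 (sago-1), with a median of 0.10.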

How the data were processed

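For each of the 12 libraries the authors deposited whole-number, unnormalized read counts by gene. Tools named in the submitters' processing notes are TopHat2 2.0.12, HTSeq, Cufflinks 2.2.0, SAMtools 1.2 and CASAVA 1.8, with no roles. Genome build, annotation release and use of strand in counting are not given in the sources used here. Per the labels' protocols, libraries were made on oligo(dT)-selected RNA with dUTP. The summary lines of each file (reads with no gene, several genes or several places), 7.92% to 27.5% of its total, stayed out of library sizes and tests.

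Sequence names were matched to WBcel235 (19896 of 20389). Tests used edgeR 4.0.16 in R 4.3.3: TMM scaling, low counts removed by filterByExpr (minimum 10), quasi-likelihood fits with the robust option, 2-sided p adjusted by Benjamini-Hochberg over all genes tested, threshold 0.05. XO was compared with XX on the 6 libraries of each tissue, and interaction and gonad against whole worm on all 12. SEs come from the F statistic. CPM uses the 12-library TMM scaling. Ratios add 0.5 to each count. The edgeR test at its main settings was tried on simulated counts, and the alternative settings were not.

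No label ties replicates to separate cultures. The p-values therefore measure only how these samples spread, and that spread may be technical. The 4 genes and the lists were chosen with earlier results of these data known. Besides the 4 genes, the text names from each pathway list up to 4 members with the smallest adjusted p in either tissue and a mean of at least 1 CPM, and the 5 closest profiles per gene. The listed symbols prg-2 and wago-11 were not matched. Protein sequences were not used here, so X-linked and autosomal best protein pairs over the genome were not analysed here. Alternatives were DESeq2 1.42.0, RLE factors, TMM on autosomal genes, no filter, each replicate left out, a replicate block, offsets with a length trend per library, and a fit of all libraries.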

Additional observations from a re-analysis of the deposited data

Results flagged for a closer look

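The XO over XX log2 fold changes of alg-1 and of ain-1 differed between tissues by the test of that difference in edgeR. The gonad value minus the whole-worm value was -2.75 for alg-1 and -2.73 for ain-1, with adjusted p = 1.27e-06 and 4.59e-08. Among X-linked genes tested, 40.8% had a lower term that passed. Gonadal sheath and muscle markers fell in XO gonads, while in whole worms muscle markers were higher in XO, and their part in this difference was not tested.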

How the results depend on the processing

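The XO against XX calls of alg-1 and ain-1 kept their direction and their side of the threshold under all 13 alternatives in each tissue, and their interaction under all 18. Their log2 fold changes ranged from -4.16 to -3.18 and from -3.54 to -3.24 in gonads, and from -0.89 to -0.54 and from -0.85 to -0.58 in whole worms. Length offsets gave -0.91 for alg-2 and -0.40 for ain-2 in gonads, and neither passed. Values of ain-2 near 0 changed sign: in gonads 0.0070 with DESeq2 and 0.0074 with RLE factors (-0.074 to 0.018 with 1 library left out), and in worms -0.0076 without the filter and -0.17 with length offsets, which passed (-0.023 to 0.038 with 1 left out). alg-2 in worms was -0.34 with length offsets and passed, with -0.24 to -0.070 on leaving out 1 library. For gonad over whole worm in XX, alg-1 was -0.39 and passed with DESeq2 and RLE factors, 1.45 with length offsets, which passed as higher, and -0.44 to -0.20 with 1 library left out. ain-1 was 0.013 without the filter and 0.80 with length offsets, which passed. alg-2 was 0.39, 0.39 and 0.45 with DESeq2, RLE factors and autosomal scaling and did not pass. In XO, ain-2 was 0.28 with autosomal scaling and did not pass, and alg-2 was 1.18 with length offsets and passed (0.19 to 0.37 with 1 left out). The length offsets moved the median of all genes by 1.22 in XO and 0.90 in XX in these tissue contrasts, and DESeq2, RLE factors, autosomal scaling and no filter by -0.56 to -0.12. The length offsets moved it by -0.25 for XO against XX in worms and by 0.26 for the interaction. Genes called in gonads numbered 4046 in the fit of all 12 libraries and 1741 to 3785 with 1 library left out, the highest without XX gonad replicate 1, against 2376. The interaction called 3494 with length offsets, against 2132. The cause of these changes was not tested. The labels give replicate numbers but do not say whether these pair the samples. Deviations from group means correlated at -0.27 to 0.01 between same-numbered XO and XX libraries, and at -0.14 to 0.06 between same-numbered gonads and worms. With 3 libraries per group, such correlations cannot decide whether same-numbered samples shared a culture or batch. With a replicate block, 1622 genes were called in gonads and 6244 in worms, alg-1 was -3.31 and ain-1 -3.28 in gonads, and no call of the 4 genes changed. XO gonads held 66 to 110 alg-1 reads per library, which limits the precision of that ratio.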
